A study of Sus scrofa with 10 samples.

Results

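Genes of the swine major histocompatibility complex (MHC, in swine called the swine leukocyte antigen or SLA complex) and of antigen presentation were followed in aortic valve leaflets. The 6 genes are SLA-DRA, SLA-DRB1, SLA-DMB and CD74 of the class II pathway and SLA-2 and TAP1 of the class I pathway. They were picked by name, and a probe set, a group of short array probes that reads 1 transcript, was taken where its annotation gives exactly 1 symbol and that symbol is one of the 6. This rule found 10 probe sets, 3 for SLA-DRB1, 3 for TAP1 and 1 for each of the others, among 6765 genes with such a probe set on the array. Where a gene has several, the brightest on average stands for it.

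Leaflet RNA was hybridised to Affymetrix porcine arrays, 4 of adult Rapacz Familial Hypercholesterolemic (RFH) swine aged 2 years, 3 of juvenile RFH swine aged 3 months and 3 of juvenile wild-type (WT) swine aged 3 months. RFH swine carry inherited high blood cholesterol, while the WT animals are labelled Rapacz Wisconsin Miniature Swine, wild type (RFH -/-). All were female, ate standard chow and were killed by exsanguination after stunning, and leaflets went into RNAlater in the hour after death. The labels do not state that the arrays are of separate animals, so p-values measure only the spread between these samples, which may be technical. No adult WT valve was analysed here, so a change with age cannot be told apart from a change with the course of the disease. Breed label and genotype change together between juvenile RFH and WT and cannot be told apart either.

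MHC class I molecules sit on nearly all nucleated cells and show peptides from inside the cell to CD8 T cells. TAP1 is a subunit of the transporter that brings these peptides into the endoplasmic reticulum, and SLA-2 encodes a classical class I heavy chain. MHC class II molecules, made by macrophages, dendritic cells, B cells and other cells, show peptides from outside the cell to CD4 T cells. SLA-DRA and SLA-DRB1 encode the alpha and beta chain of the DR molecule. CD74, the invariant chain, fills the groove of new class II molecules, and SLA-DMB encodes a chain of the DM molecule that exchanges the remnant of CD74 for antigen peptides. MHC genes are highly polymorphic, and a probe set reads best the alleles that match its probes. The alleles of these animals are not given in the labels, so for SLA genes the amount of transcript and the match of an allele to the probes cannot be told apart. In the RefSeq gene table of assembly Sscrofa11.1, SLA-2, SLA-DRA, SLA-DRB1, TAP1 and SLA-DMB lie in this order on chromosome 7, TAP1 between the immunoproteasome genes PSMB8 and PSMB9, and CD74 lies on chromosome 2.

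All values are on the log2 scale as deposited, and a difference of 1 is a doubling. Of 7 transcripts of valve interstitial cells, DCN, LUM, VIM, POSTN and THY1 lay between 12.28 and 14.46 in all arrays, COL1A2 between 8.15 and 9.53, and COL3A1 between 6.50 and 7.39, around the array medians of 6.96 to 7.03. Juvenile RFH replicate 2 stood apart by cardiac muscle transcripts, with a mean over 11 muscle genes of 9.07 against 5.24 to 5.87 in the other 9 arrays. Adult RFH replicate 3 had the lowest adult values of SLA-DRA, SLA-DRB1, SLA-DMB and CD74, given below. It stood further from the other adults in the DR genes than in SLA-DMB and CD74, where it lay near replicate 4. Poly-A labelling controls had a mean of 7.34 ± 0.20 (SD, n = 4) for the adult RFH arrays, 6.44 ± 0.02 (SD, n = 3) for juvenile RFH and 6.72 ± 0.08 (SD, n = 3) for WT. Adult minus juvenile RFH was 0.90 (exact two-sided permutation p = 0.0286), and juvenile RFH minus WT was -0.28 (exact two-sided permutation p = 0.1), each the smallest p that so few arrays allow. The part of these controls in the results was not tested. The 3' minus 5' signal of control transcripts, which grows as RNA breaks down, was 2.33 ± 0.45 for adult RFH, 2.31 ± 0.15 for juvenile RFH and 2.12 ± 0.08 for WT arrays. Adult minus juvenile RFH was 0.02 in this measure, with an exact permutation p of 0.914, while juvenile RFH minus WT was 0.19, with an exact permutation p of 0.2.

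In adult against juvenile RFH leaflets, CD74, SLA-DMB and SLA-2 rose, and the other 3 genes did not pass the test. CD74 was 1.83-fold, SLA-DMB 1.68-fold and SLA-2 1.33-fold higher in adults. In this comparison 3 of 6 genes were called up and 0 down, where 19.3% of all 6765 genes were called, 11.4% up and 7.85% down (limma, Benjamini-Hochberg adjusted p under 0.05 over all 23999 probe sets). The same 3 had all adult arrays above all juvenile RFH arrays, as did 16.6% of all genes. The median change of the 6 genes was 0.43, beside 0.02 over all genes. The 6 genes were chosen with earlier results of these data known, so these contrasts with all genes, here and below, carry no test. Without adult RFH replicate 3, 5 of the 6 were called up, all but TAP1, beside 14.5% of all genes. That array was singled out by its low class II values in these same data. Without adult RFH replicates 1, 2 and 4 in turn, 1, 2 and 3 of the 6 genes were called, among 3483, 3307 and 4401 of the 23999 probe sets. Without juvenile RFH replicate 2, the array with muscle transcripts, SLA-2 alone was called, by 0.39 ± 0.11 (adjusted p = 0.0443), among 3027 probe sets. The differences for CD74 and SLA-DMB were then 0.90 ± 0.28 and 0.75 ± 0.25 (adjusted p = 0.0682 and 0.0852).

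In juvenile RFH against juvenile WT leaflets, the means of all 6 genes were higher in RFH and none passed the limma test. At an unadjusted p under 0.05 there were 3, where 15.1% of all genes were, and in adult against juvenile RFH 3 of the 6, where 34.5% of all genes were. Over all genes 0.133% were called in this comparison, 0.0887% up and 0.0443% down. The changes ran between 0.25 for SLA-2 and 0.94 for SLA-DRB1, with a median of 0.41 beside 0.07 over all genes. For 5 of the 6 genes every RFH array lay above every WT array, where this held for 26.3% of all genes and the opposite for 9.53%. Without juvenile RFH replicate 2, SLA-DRB1 and SLA-DRA were 0.88 ± 0.31 and 0.82 ± 0.43 higher in RFH (adjusted p = 0.497 and 0.697).

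**Figure D1:**
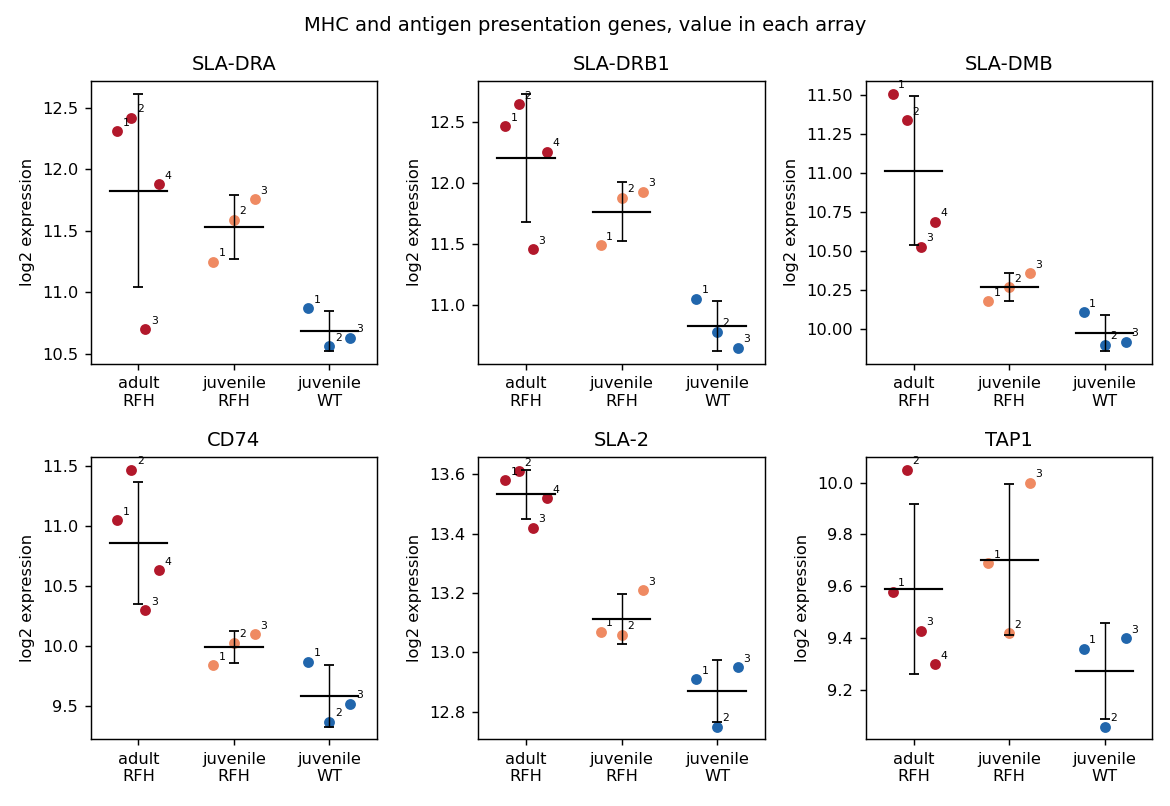
Log2 expression of the 6 genes in each array, with points numbered by replicate, a line at the group mean and bars of 1 SD; each panel has its own scale. In SLA-DRA and SLA-DRB1 adult RFH replicate 3 lies below the juvenile RFH mean, and in SLA-2 the 4 adult arrays lie between 13.42 and 13.61, above all juvenile arrays.

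SLA-DRA, the DR alpha chain, had values of 12.31, 12.42, 10.70 and 11.88 in adult RFH replicates 1 to 4, against 11.25, 11.59 and 11.76 in juvenile RFH replicates 1 to 3. Adult RFH replicate 3 was below all juvenile RFH arrays and the other adult arrays were above all of them. The difference was 0.29 ± 0.34 (SE), with a 95% confidence interval of -0.46 to 1.05 (adjusted p = 0.611). Without adult RFH replicate 3, singled out by this low value, it was 0.67 ± 0.17 (adjusted p = 0.0239). Without adult RFH replicate 1 or 2 it was 0.13 ± 0.36 and 0.10 ± 0.34 (adjusted p = 0.843 and 0.885). In juvenile WT leaflets SLA-DRA had 10.87, 10.56 and 10.63, all below the juvenile RFH arrays. Juvenile RFH minus WT was 0.85 ± 0.37 (SE), 1.80-fold, with an interval of 0.04 to 1.66 (adjusted p = 0.368). The adult value of replicate 3, 10.70, lay within the WT range.

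SLA-DRB1, the DR beta chain, ran the same way, with 12.47, 12.65, 11.46 and 12.26 in adult RFH replicates 1 to 4, against 11.49, 11.88 and 11.93 in juvenile RFH replicates 1 to 3. Again adult RFH replicate 3 was the low array, just under the lowest juvenile RFH value. The difference was 0.44 ± 0.25 (SE), interval -0.10 to 0.99 (adjusted p = 0.253). Leaving out that array made it 0.69 ± 0.16 (adjusted p = 0.0138). Without adult RFH replicate 1 or 2 it was 0.36 ± 0.27 and 0.30 ± 0.24 (adjusted p = 0.415 and 0.468). Juvenile WT leaflets had 11.05, 10.78 and 10.65, again below all juvenile RFH arrays. Juvenile RFH minus WT was 0.94 ± 0.27 (SE), 1.91-fold, interval 0.35 to 1.52 (adjusted p = 0.189).

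The juvenile calls of both DR genes depended on which spread the fit used. The fit pools the spread of the 3 groups, and adult RFH arrays varied more, with a median SD per probe set of 0.188 against 0.125 in juvenile RFH and 0.095 in juvenile WT. With only the juvenile RFH and WT arrays in the fit, SLA-DRB1 rose by 0.94 ± 0.15 (adjusted p = 0.0268) and SLA-DRA by 0.85 ± 0.15 (adjusted p = 0.0297) in RFH, with 3.62% of all genes called up. With array weights both passed as well (adjusted p = 0.0158 and 0.045, 4.21% of all genes called up).

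SLA-DMB, the DM chain, had 11.51, 11.34, 10.53 and 10.69 in adult RFH replicates 1 to 4, against 10.18, 10.27 and 10.36 in juvenile RFH replicates 1 to 3. All adult arrays lay above all juvenile RFH arrays, replicates 1 and 2 by more than replicates 3 and 4. It rose by 0.75 ± 0.21 (SE) in adults (adjusted p = 0.0367). Leaving out any 1 array other than adult RFH replicate 3 or 4 ended this call (adjusted p = 0.0539 to 0.118). Juvenile WT leaflets had 10.11, 9.90 and 9.92, with a gap of 0.29 ± 0.23 between juvenile RFH and WT (interval -0.21 to 0.80, adjusted p = 0.651).

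CD74, the invariant chain, had 11.05, 11.47, 10.30 and 10.63 in adult RFH replicates 1 to 4, against 9.84, 10.03 and 10.10 in juvenile RFH replicates 1 to 3. The groups did not overlap, and adult RFH replicate 3 was the adult array nearest to the juveniles. It rose by 0.87 ± 0.24 (SE) in adults (adjusted p = 0.0301). With that array left out it rose by 1.06 ± 0.20 (adjusted p = 0.00689). The call ended without adult RFH replicate 1 (adjusted p = 0.0673) and without juvenile RFH replicate 1, 2 or 3 (0.109, 0.0682 and 0.071). With only the adult and juvenile RFH arrays in the fit, neither CD74 nor SLA-DMB passed (adjusted p = 0.0656 and 0.0875). In juvenile WT leaflets CD74 had 9.87, 9.37 and 9.52, and WT replicate 1 lay above the lowest juvenile RFH array. Juvenile RFH minus WT was 0.40 ± 0.25 (interval -0.16 to 0.96, adjusted p = 0.564).

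SLA-2, the class I heavy chain, had the smallest spread among adult arrays of the 6 genes, an SD of 0.09. It had 13.58, 13.61, 13.42 and 13.52 in adult RFH replicates 1 to 4, against 13.07, 13.06 and 13.21 in juvenile RFH replicates 1 to 3. The adult arrays lay above all juvenile RFH arrays, adult RFH replicate 3 included. SLA-2 rose by 0.42 ± 0.09 (SE) in adults (adjusted p = 0.0118), and this call stood under all 21 alternatives run, with adjusted p between 0.00677 and 0.0491. Juvenile WT leaflets had 12.91, 12.75 and 12.95, below all juvenile RFH arrays, with a gap of 0.25 ± 0.10 (interval 0.03 to 0.46, adjusted p = 0.328). The name of this probe set marks it as one that may read related transcripts. Class I genes are near-identical copies, so its signal may include SLA-1 and SLA-3. A probe set annotated to SLA-2 and SLA-3 together had 13.75, 13.94, 13.49 and 13.68 in adult RFH replicates 1 to 4, against 13.13, 13.21 and 13.34 in juvenile RFH and 12.94, 12.80 and 13.06 in WT replicates 1 to 3. Its adult arrays, too, lay above all juvenile arrays. It rose by 0.48 ± 0.12 in adults (adjusted p = 0.0186), and one annotated to LOC100513601, SLA-2 and SLA-1 rose by 0.53 ± 0.12 (adjusted p = 0.0155). Another probe set with the annotation of the last was dim, with a mean of 5.99, and a difference of -0.06 (adjusted p = 0.779).

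TAP1, the peptide transporter, had 9.58, 10.05, 9.43 and 9.30 in adult RFH replicates 1 to 4, against 9.69, 9.42 and 10 in juvenile RFH replicates 1 to 3. The groups overlapped throughout, with a difference of -0.11 ± 0.19 (SE), interval -0.53 to 0.31 (adjusted p = 0.734). The sign turned to 0.04 without juvenile RFH replicate 3. Juvenile WT leaflets had 9.36, 9.06 and 9.40, just below the lowest juvenile RFH array, and juvenile RFH minus WT was 0.43 ± 0.20 (interval -0.02 to 0.88, adjusted p = 0.418). The 2 further TAP1 probe sets were dim, with means of 6.19 and 5.13 under the array medians. Their changes lay between -0.16 and 0.06 in the 2 comparisons, and none passed.

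By group mean, SLA-DRA, SLA-DRB1, SLA-DMB, CD74 and SLA-2 all stood in the order adult RFH, juvenile RFH, juvenile WT. The share of all genes that stood in this order is not given here. TAP1 alone had its highest mean, 9.70, in juvenile RFH leaflets, beside 9.59 in adult RFH and 9.27 in WT leaflets. The step between adult and juvenile RFH exceeded the spread by the test for CD74, SLA-DMB and SLA-2 and not for the other genes. The step between juvenile RFH and WT did not for any of them in the fit of all 10 arrays. The 2 steps share the juvenile RFH arrays. Averaged over SLA-DRA, SLA-DRB1, SLA-DMB and CD74, the first step was 0.59 and the second 0.62.

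Values of the 4 class II genes ran in parallel from array to array. Over the 10 arrays Pearson's r was 0.96 between SLA-DRA and SLA-DRB1 and 0.97 between SLA-DMB and CD74, and it was 0.98 and 0.87 for these pairs after the group means were taken out. TAP1 had the lowest r over all arrays, 0.50 to 0.64 with the other 5 genes. After the group means were taken out it had 0.44 to 0.78, highest with SLA-2, and SLA-2 had 0.62 to 0.72 with the class II genes. These values describe 10 arrays that share 3 groups and 1 normalization, and carry no test. The mean of the 4 genes was 11.84, 11.97, 10.75 and 11.36 in adult RFH replicates 1 to 4, 10.69, 10.94 and 11.04 in juvenile RFH replicates 1 to 3 and 10.48, 10.15 and 10.18 in WT replicates 1 to 3.

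Of 6759 other genes, the 5 whose 10 values were most like this class II mean included SLA-DQB1 (r = 0.99), SLA-DQA1 (0.98) and SLA-DMA (0.98), further class II chains. The remaining ones were LOC106504372 (0.98), which the RefSeq table lists with the synonym SLA-DRB, and the T cell and monocyte chemokine CCL5 (0.98). CCL5 had 9.38, 9.56, 7.63 and 8.48 in adult RFH replicates 1 to 4, against 7.59, 7.82 and 8.09 in juvenile RFH and 6.80, 6.83 and 7.08 in WT replicates 1 to 3, with adult RFH replicate 3 again low. The 5 genes most like SLA-2 were B4GALT5 (r = 0.98), a galactosyltransferase, the leukocyte tetraspanin CD53, the leukocyte protein kinase C substrate PLEK, the thioredoxin reductase TXNRD1 and the urea cycle enzyme ASL (0.97 each). After the group means were taken out r with SLA-2 was 0.67 for B4GALT5, 0.82 for CD53, 0.65 for PLEK, 0.59 for TXNRD1 and 0.47 for ASL.

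LOC106504372 had 12.82, 12.95, 11.81 and 12.57 in adult RFH replicates 1 to 4, 11.92, 12.24 and 12.29 in juvenile RFH and 11.57, 11.33 and 11.26 in WT replicates 1 to 3, the array order of SLA-DRB1.

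The other SLA-DRB1 probe sets are shown because alleles may differ between animals. Of the 3 annotated to SLA-DRB1 alone, 2 were dim, with means of 4.86 and 3.61, and neither passed in a comparison. Probe sets annotated to both SLA-DRB1 and LOC106504372 name no gene here and are given as measured. One of them, shared probe set A, had 10.94, 10.87, 6.53 and 11.17 in adult RFH replicates 1 to 4, 10.31, 10.66 and 10.81 in juvenile RFH and 7.79, 8.81 and 7.95 in WT replicates 1 to 3. Adult RFH replicate 3 was thus below all WT arrays, while the other adult arrays lay at 10.87 or above. Another, shared probe set B, had 10.25, 10.28, 9.83 and 7.86 in adult RFH replicates 1 to 4, 7.32, 7.47 and 7.68 in juvenile RFH and 9.12, 8.41 and 8.69 in WT replicates 1 to 3. Here adult RFH replicate 4 lay near the juvenile RFH arrays, and the WT arrays stood between them and the other adults. It was higher in adult than in juvenile RFH by 2.06 ± 0.49 (SE, adjusted p = 0.0171), while juvenile RFH minus WT was -1.25 ± 0.52 (adjusted p = 0.354). Shared probe set A differed by 2.41 ± 1.00 between juvenile RFH and WT (adjusted p = 0.350), so the 2 shared probe sets had opposite signs there, and neither passed. The brightest SLA-DRB1 probe set lay between them at 0.94. Shared probe set C was dim, at 4.62 to 5.22.

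**Figure D2:**
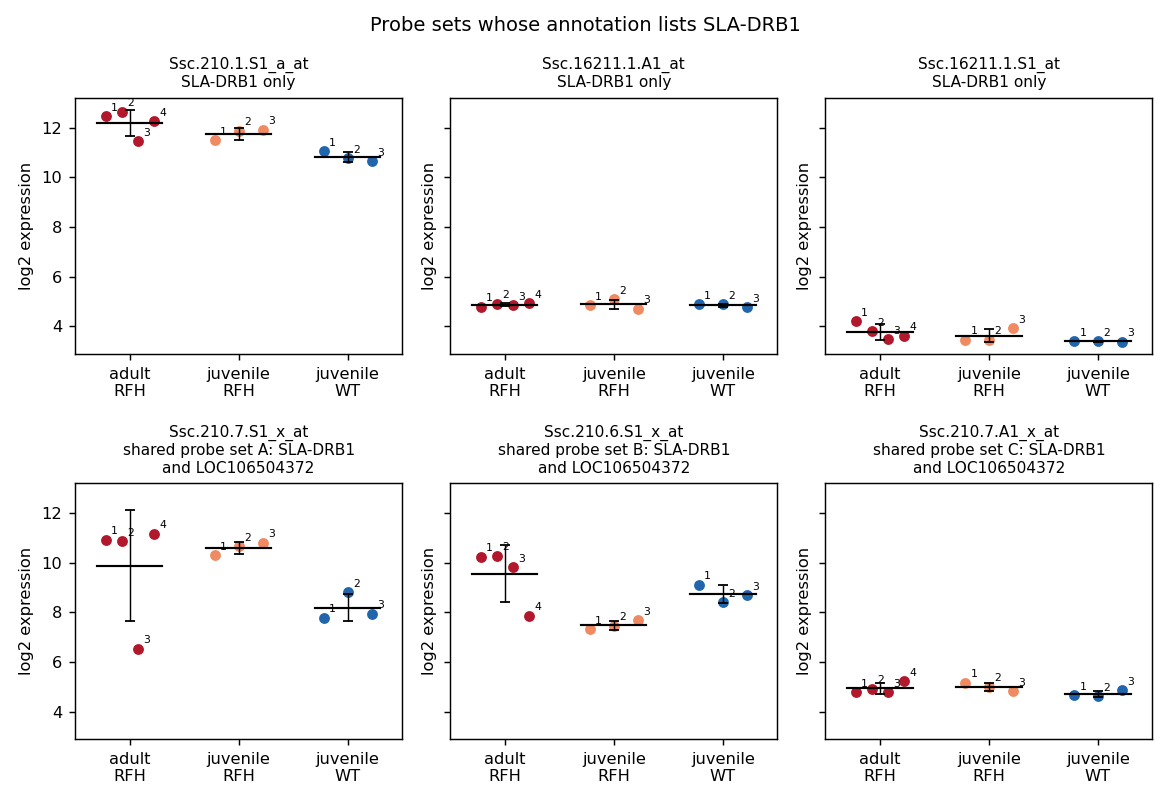
Log2 expression in each array of the 3 probe sets annotated to SLA-DRB1 alone (top) and the 3 annotated to SLA-DRB1 and LOC106504372 together (bottom), with replicate numbers, group means and bars of 1 SD on a shared scale. In shared probe set A adult RFH replicate 3 lies at 6.53 and the other adults between 10.87 and 11.17, and in shared probe set B adult RFH replicate 4 lies at 7.86 and the others between 9.83 and 10.28.

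Among further genes of the class I pathway, 13 were measured. In adult against juvenile RFH leaflets none of them rose, 1 fell, 12 failed the test and 3 had an unadjusted p under 0.05 (limma), and their median change was 0.13. Of all genes 11.4% rose, 7.85% fell and 34.5% had such an unadjusted p. PDIA3, the disulfide isomerase of the peptide-loading complex, fell by 0.30 ± 0.08 (SE, adjusted p = 0.0274). Its other probe sets changed by -0.48 ± 0.20 and 0.12 ± 0.12 and did not pass (adjusted p = 0.128 and 0.551). SLA-3, a classical class I chain, had a mean of 11.85 ± 0.43 in adult RFH and 11.30 ± 0.23 in juvenile RFH leaflets (SD, n = 4 and 3), a change of 0.55 ± 0.21 (adjusted p = 0.0985). Without adult RFH replicate 3 it rose by 0.71 ± 0.18 (adjusted p = 0.0205). Tapasin (TAPBP), which bridges class I molecules to the transporter, had a difference of 0.36 ± 0.13 (adjusted p = 0.0775). The light chain B2M, at 14.44 ± 0.15 in adult RFH and 14.40 ± 0.13 in juvenile RFH leaflets, had a change of 0.04 (adjusted p = 0.83).

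Between juvenile RFH and WT, none of the 13 passed by limma, and 6 had an unadjusted p under 0.05, beside 15.1% of all genes. The median of the 13 was 0.14. In 7 of the 13 all RFH arrays lay above all WT arrays, beside the 26.3% of all genes. Among them were the immunoproteasome subunit PSMB8, with 9.34 ± 0.28 in juvenile RFH and 8.49 ± 0.18 in WT leaflets (SD, n = 3 each), and the proteasome activator subunits PSME2, with 10.39 ± 0.24 in juvenile RFH and 9.73 ± 0.11 in WT, and PSME1, with 10.91 ± 0.26 in RFH and 10.42 ± 0.10 in WT. With only these 2 groups in the fit PSMB8 rose by 0.85 ± 0.15 (adjusted p = 0.034) and PSME2 by 0.66 ± 0.13 (adjusted p = 0.0394). SLA-3 did not share this, at 11.30 ± 0.23 in juvenile RFH and 11.57 ± 0.16 in WT leaflets, a change of -0.26 ± 0.22 (adjusted p = 0.687).

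Of 17 further class II pathway genes 3 rose in adult against juvenile RFH leaflets, beside 11.4% of all genes. The other 14 failed the test, none fell, and the median change was 0.44. The risen genes were CTSD, a lysosomal protease, by 1.56 ± 0.25 (SE, adjusted p = 0.0029), LGMN, the lysosomal protease legumain, by 0.52 ± 0.09 (adjusted p = 0.00412), and CD86, a co-stimulatory ligand for T cells, by 1.10 ± 0.26 (adjusted p = 0.0157). CD86 had 8.99, 9.15, 7.89 and 8.44 in adult RFH replicates 1 to 4, against 7.66, 7.58 and 7.32 in juvenile RFH replicates 1 to 3. Other class II chains had changes of like size that did not pass, 0.74 ± 0.28 for SLA-DQA1, 0.66 ± 0.25 for SLA-DQB1 and 0.96 ± 0.30 for SLA-DOA (adjusted p = 0.0955, 0.0934 and 0.0513). The lysosomal protease CTSS and the thiol reductase IFI30 did not pass by their brightest probe sets (adjusted p = 0.0619 and 0.0522). Another probe set of each rose, by 0.91 ± 0.18 and 0.57 ± 0.15 (adjusted p = 0.00825 and 0.0251). Without adult RFH replicate 3, 11 of the 30 further class I and class II pathway genes rose, beside 14.5% of all genes, and 1 fell. Among the risen were SLA-DQA1, SLA-DQB1, SLA-DMA and SLA-DOA. The pathway genes called were 4, 4 and 7 without adult RFH replicates 1, 2 and 4 in turn. Of all 23999 probe sets, 3483, 3307 and 4401 were called in these settings. CIITA, the transcriptional coactivator that controls class II genes, had 7.50 ± 0.24 in adult RFH and 7.67 ± 0.17 in juvenile RFH leaflets (adjusted p = 0.46). The promoter-binding factors NFYB, NFYC, CREB1 and RFXANK did not pass either, with changes between -0.17 and 0.23.

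Between juvenile RFH and WT none of the 17 passed by limma, and 2 had an unadjusted p under 0.05, beside 15.1% of all genes. The median was 0.19. IFI30, a thiol reductase that unfolds antigens in lysosomes, had 10.35 ± 0.25 in juvenile RFH and 9.74 ± 0.11 in WT leaflets, without overlap, a change of 0.60 ± 0.21 (adjusted p = 0.268). CIITA had 7.67 ± 0.17 in juvenile RFH and 7.29 ± 0.11 in WT leaflets, also without overlap (0.37 ± 0.15, adjusted p = 0.329). In all, 4 of the 17 lay higher in RFH without overlap, the others being SLA-DMA and LGMN, and 3 lay lower, CTSD, NFYB and NFYC, beside 26.3% and 9.53% of all genes.

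**Figure D3:**
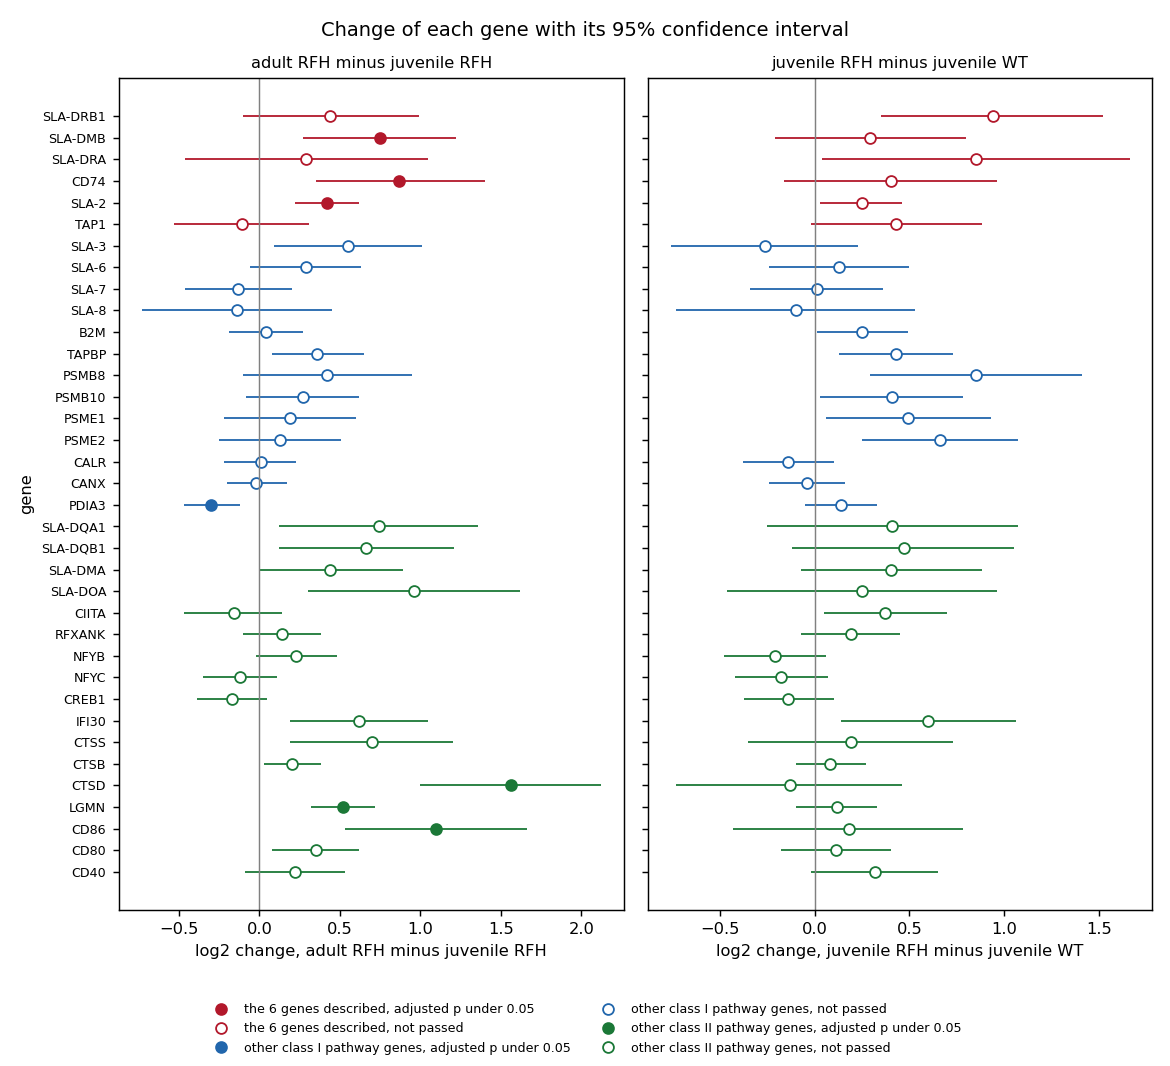
Log2 change of the 6 genes and 30 further class I and class II pathway genes, adult RFH minus juvenile RFH on the left and juvenile RFH minus juvenile WT on the right, with 95% confidence intervals; filled points passed an adjusted p of 0.05. On the left CD74, SLA-DMB, SLA-2, CTSD, LGMN and CD86 are filled above 0 and PDIA3 below 0, and no point is filled on the right.

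Interferon gamma, made by T and NK cells, raises both MHC classes. Its gene IFNG was near the low end of the scale, between 3.16 and 4.26 over all arrays. Of 11 measured genes of its axis 1 rose in adult against juvenile RFH leaflets, beside 11.4% of all genes. None fell, and the median change was 0.09. The gene that rose, SOCS1, an inhibitor of cytokine signalling, did so by 0.74 ± 0.15 (adjusted p = 0.00784). Its other probe sets changed by 0.48 ± 0.17 and -0.03 ± 0.13 (adjusted p = 0.0787 and 0.895). None of the 11 passed between juvenile RFH and WT, and 1 had an unadjusted p under 0.05, beside 15.1% of all genes. CXCL9, a chemokine induced by interferon gamma, had 9.45, 10.44, 6.34 and 7.23 in adult RFH replicates 1 to 4, against 6.92, 7.89 and 8.69 in juvenile RFH and 6.76, 5.67 and 6.50 in WT replicates 1 to 3. Its adult values spanned those of juvenile RFH, high in replicates 1 and 2 and lowest in replicate 3. GBP1, a GTPase induced by interferon gamma, had 9.47, 9.55 and 10.79 in juvenile RFH replicates 1 to 3, against 9.23, 8.61 and 8.85 in WT replicates 1 to 3, a change of 1.04 ± 0.40 (adjusted p = 0.317).

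Markers of cells that carry class II molecules, and of other leaflet cells, are given beside these genes. In whole leaflets more cells of a type and more RNA per cell cannot be told apart. Over all genes 11.4% rose and 7.85% fell in adult against juvenile RFH leaflets, the shares to set beside each marker list here and below. Of 12 measured macrophage and dendritic cell markers 5 rose in adult against juvenile RFH leaflets and none fell. They were CD14, part of the receptor for bacterial lipopolysaccharide (0.92 ± 0.14), TYROBP (1.29 ± 0.21) and FCER1G (1.07 ± 0.23), signalling adaptors of myeloid receptors, the lysosomal membrane protein LAPTM5 (1.06 ± 0.17) and the complement subunit C1QA (0.62 ± 0.18). The other CD14 probe set, with a mean of 6.15 under the array medians, changed by 0.00 ± 0.10 (adjusted p = 0.993). The mean of this list was 9.67 to 10.17 in adult RFH, 9.26 to 9.34 in juvenile RFH and 8.96 to 9.10 in WT arrays. The macrophage receptors CD163 and MRC1 did not pass, with 0.42 ± 0.27 and -0.21 ± 0.12. Another CD163 probe set changed by -0.90 ± 0.41 (adjusted p = 0.159). Of 5 general leukocyte markers 3 rose, with list means of 8.98 to 9.98 in adult RFH, 8.38 to 8.52 in juvenile RFH and 8.13 to 8.17 in WT arrays. CORO1A did not pass by its brightest probe set (mean 8.04), while another, with a mean of 8.03, rose by 0.96 ± 0.25 (adjusted p = 0.0267). PTPRC, the gene of the leukocyte antigen CD45, had a mean of 7.34 in adult RFH and 6.64 in juvenile RFH leaflets (adjusted p = 0.0506). Of 11 endothelial markers 3 rose and 1 fell, with list means of 8.67 to 9.56 in adult RFH, 8.57 to 8.83 in juvenile RFH and 8.23 to 8.53 in WT arrays. None of these markers passed between juvenile RFH and WT, where 3 macrophage, 1 leukocyte and 2 endothelial markers had an unadjusted p under 0.05 (limma). Of all genes 15.1% had such a p there.

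Adult RFH replicate 3 was low for some of these lists and not for others. Its endothelial mean, 8.67, was within the juvenile RFH range, against 9.18 to 9.56 in the other adult arrays. Its macrophage mean of 9.67 equalled that of adult RFH replicate 4, both the lowest among adults, while the class II mean was 10.75 in replicate 3 and 11.36 in replicate 4. Of macrophage and leukocyte genes, r with the class II mean over 10 arrays was 0.96 for AIF1, 0.95 for C1QC, 0.94 for CD53, 0.90 for TYROBP and 0.86 for LCP1. After the group means were taken out it was 0.88, 0.85, 0.87, 0.79 and 0.77. Of the 12 macrophage and dendritic cell markers only AIF1, C1QC, TYROBP and CD14 have an r here. MRC1, without one, was lowest among adults in replicate 2, at 10.13, where the class II mean was highest, 11.97. Of the interferon gamma axis, IRF8 had 0.96 and 0.89, CXCL9 0.90 and 0.94 and GBP1 0.73 and 0.83 in these 2 measures. Only these of the 11 measured axis genes have an r here. IFNGR1, without one, was highest among adults in replicate 3, at 10.97. The class II coactivator CIITA had an r of 0.61 and 0.77. The endothelial genes PECAM1 and VWF had 0.86 and 0.83 over all arrays, and 0.60 and 0.28 after the group means were taken out. For CD14 these values were 0.81 and 0.29, and for PTPRC 0.81 and 0.60. B cells were read by CD79B alone, at 4.56 to 4.92 in all arrays, under the array medians. T and NK cell markers had no called gene among 12 in either comparison. At an unadjusted p under 0.05 there was 1 between adult and juvenile RFH, beside 34.5% of all genes, and 0 between juvenile RFH and WT, beside 15.1%. The list mean of the T and NK cell markers was 6.64 in adult RFH replicate 2 and 5.25 to 5.97 in all other arrays. Of 7 valve interstitial markers none rose and 2 fell in adults, with list means of 11.74 to 12.15 in adult RFH, 12.31 to 12.40 in juvenile RFH and 12.41 to 12.49 in WT arrays. Of 3 erythroid markers 2 fell in adults, with list means of 6.28 to 7.24 in adult RFH, 7.56 to 8.48 in juvenile RFH and 6.83 to 7.34 in WT arrays. Of 4 adipocyte markers 2 rose in adults, FABP4, a fatty acid binding protein, by 3.83 ± 0.58 and the lipase LPL by 1.17 ± 0.33. Another LPL probe set rose by 3.09 ± 0.47 (adjusted p = 0.00208). The other adipocyte markers, the adiponectin gene ADIPOQ and the leptin gene LEP, did not pass, with 0.12 ± 0.12 and -0.13 ± 0.08 (adjusted p = 0.539 and 0.317). List means were 6.09 to 7.15 in adult RFH, 5.29 to 5.38 in juvenile RFH and 5.34 to 5.45 in WT arrays. The change of FABP4 was larger than that of any of the 6 genes. Of 11 cardiac muscle markers 0 passed by limma between adult and juvenile RFH, with 3 at an unadjusted p under 0.05, beside 34.5% of all genes. None of these 4 lists held a gene that passed between juvenile RFH and WT. The part of each cell type in the MHC values was not tested.

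**Figure D4:**
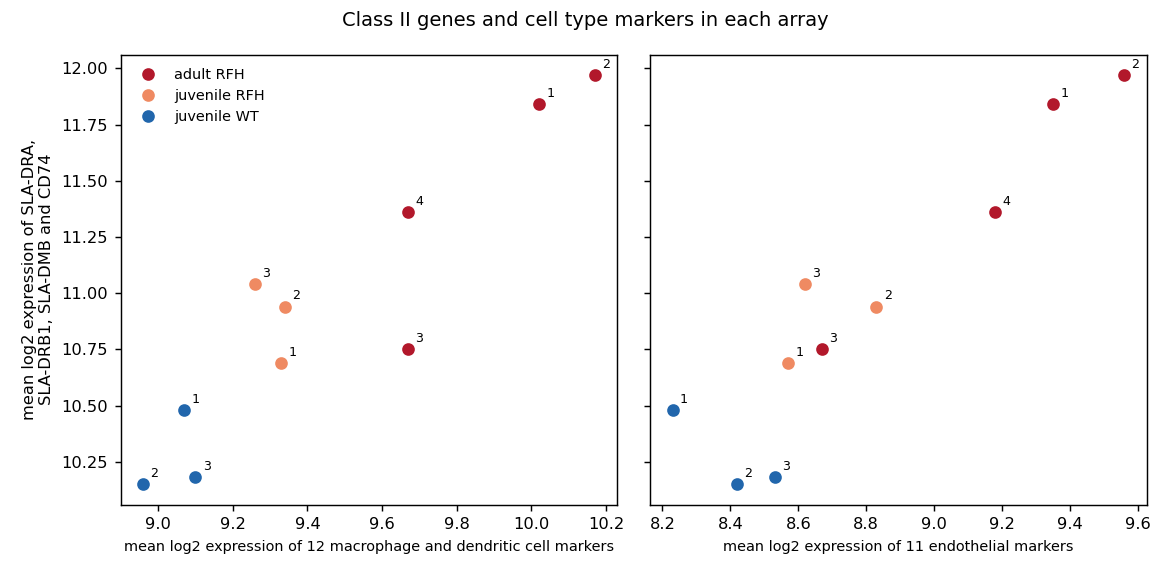
Mean log2 expression of SLA-DRA, SLA-DRB1, SLA-DMB and CD74 in each array, against the mean of 12 macrophage and dendritic cell markers (left) and of 11 endothelial markers (right), with points numbered by replicate. Adult RFH replicate 3 and replicate 4 share the lowest adult macrophage mean, 9.67, while their class II means are 10.75 and 11.36.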

How the data were processed

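The data are Affymetrix porcine arrays of 10 leaflet samples. The deposited table holds log2 values, 1 per probe set and array; the unit was read from the values, since the sources used here do not state it. The submitters' processing notes name R 2.15.2, but how background was corrected and arrays were normalized is not given in the sources used here. Of 24123 rows, 124 control probe sets were left out, which left 23999, of which 10069 have 1 symbol, 198 several and 13732 none. All 6 genes were found by gene ID in the RefSeq table under the same symbol.

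R 4.3.3 and limma 3.58.1 were used to fit the group means of all 10 arrays (7 residual and 3.57 prior degrees of freedom) and tested two-sided with Benjamini-Hochberg adjustment over 23999 probe sets. The words rose and fell mean an adjusted p under 0.05. SE are limma's moderated ones, group values are means ± SD, and the number of arrays limits the precision. The fit was tested on simulated data. The genes and lists were chosen with earlier results of these data known. All measured genes of the pathway, interferon gamma and marker lists could be named, and likeness named the 5 genes with the highest Pearson r. Of 21 class I and 23 class II pathway genes listed, 13 and 17 had a probe set with 1 symbol. Alternatives were other normalizations, filters, variance settings, groups in the fit, probe set rules, a replicate block and each array left out.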

Additional observations from a re-analysis of the deposited data

Results flagged for a closer look

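Among 48 probe sets of the MHC and pathway genes, 3 had 1 adult RFH array far from the other 3 by Dixon's test, which chance does in about 1 of 20 groups. The probe set annotated to SLA-DRB1 and LOC106504372, shared probe set A, had 6.53 in adult RFH replicate 3 and 10.87 to 11.17 in the other adult arrays. A probe set annotated to LOC100513601 and SLA-1 had 8.91 in adult RFH replicate 2 and 5.17 to 5.79 in the others. The brightest B2M probe set had 14.22 in adult RFH replicate 3 and 14.50 to 14.53 in the others.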

How the results depend on the processing

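Of 252 values of the 6 genes under the alternatives, 229 kept direction and side of the threshold, 16 lost the call, 6 gained it and 1 turned, TAP1 in adult against juvenile RFH, at 0.04 without juvenile RFH replicate 3. Over the arrays left out that value ran from -0.27 to 0.04. In adult against juvenile RFH the number of the 6 genes called was 1 with only the 2 groups in the fit and 1 with values below 4 raised to 4, and 1 to 5 with arrays left out. The pathway count of 4 was 7 with dim probe sets left out and 3 to 12 with arrays left out. The count of all probe sets was 4025, 2308 with only the 2 groups and 2243 to 4965 with arrays left out. It was 3381 with values below 4 raised to 4 and 3247 with dim probe sets left out. In juvenile RFH against WT 2 of the 6 genes were called with only the 2 groups and 2 with array weights, and 2 and 4 pathway genes under these settings. Leaving out arrays gave 0 for both counts. The 28 probe sets called there became 6 with dim probe sets left out, 872 with only the 2 groups, 1171 with array weights, 10 with values below 4 raised to 4 and 2 to 71 with arrays left out. The cause of these shifts was not tested. Deviations of same-numbered arrays correlated between -0.16 and 0.19. With so few arrays this cannot exclude a pairing by replicate number, and the main fit used none. With the replicate block, 3 of the 6 genes and 4 pathway genes were called in adults and 0 and 0 in juveniles, among 3922 and 17 probe sets. Signal over background is unknown, so dim probe sets bound no level.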

Other observations

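Probe sets annotated to B2M disagreed. Of 9, 2 rose and 2 fell in adult against juvenile RFH leaflets, with changes between -3.87 and 0.58. The one with the lowest change had 11.12, 8.81, 10.14 and 8.21 in adult RFH replicates 1 to 4, 13.80, 14.15 and 12.38 in juvenile RFH and 11.15, 10.98 and 12.40 in WT replicates 1 to 3. The erythroid gene AHSP, which encodes a chaperone of alpha globin, had 5.17, 4.49, 4.55 and 4.14 in adult RFH, 6.28, 7.06 and 5.53 in juvenile RFH and 4.41, 4.39 and 5.14 in WT arrays in the same order. In both, juvenile RFH replicate 2 was the highest array and adult RFH replicate 4 the lowest. Of the other erythroid markers, ALAS2 had the same highest and lowest arrays, at 8.77 and 5.20. HBB did not, with its highest value, 10.01, in juvenile WT replicate 1 and its lowest, 8.93, in adult RFH replicate 3. A link of this probe set to erythroid transcripts was not tested.

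Some T cell transcripts set adult RFH replicate 2 apart. CD8A, a co-receptor of cytotoxic T cells, had 7.56 in that array and 5.11 to 5.53 in the other adult arrays, and CD3E, a chain of the T cell receptor complex, had 7.89 there and 5.88 to 6.55 in the others. Of the 12 T and NK cell markers, CD8B (5.52) and GNLY (7.08) were lowest among adults in that array, and PRF1 (6.01) was not highest there. The same array had the highest adult values of SLA-DRA, SLA-DRB1, CD74, SLA-2 and TAP1, while SLA-DMB was highest in adult RFH replicate 1.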
